A study of Homo sapiens with 19 samples.

Results

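HMGN5 and 7 other transcripts of high mobility group genes were followed in MDA-MB-231 cells, a long-established line from a human triple-negative breast tumour, by sequencing of poly(A) RNA. The 8 transcripts were picked by their Ensembl IDs, 1 transcript a gene, from 175775 transcripts listed in the deposited tables, and all 8 passed the filter on low counts in both experiments. They were ENST00000358130.6 (HMGN5), ENST00000380749.9 (HMGN1), ENST00000361427.5 (HMGN2), ENST00000344726.9 (HMGN3), ENST00000377575.2 (HMGN4), ENST00000341423.9 (HMGB1), ENST00000296503.9 (HMGB2) and ENST00000403681.6 (HMGA2). The symbols came with the IDs, because the tables list no gene names. Each value is therefore the level of that 1 transcript and not of its gene, and other transcripts of these genes were not analysed here.

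In the siRNA experiment, cells received siRNA against HMGN5 (siHMGN5, 2 libraries), siRNA against STAT3 (siSTAT3, 2 libraries) or control siRNA (NC, 4 libraries, titled Ctrl). In the lentiviral experiment, cells received STAT3 siRNA and lentiviral HMGN5 (siSTAT3_HMGN5), STAT3 siRNA and control vector (siSTAT3_Vec) or control siRNA and control vector (NC_Vec), with 3 libraries each. Culture was in L15 supplemented with 10% serum, and siRNA was transfected at 30 nM with Lipofectamine RNAiMAX in every group, so the controls carry a transfected siRNA and, in the lentiviral experiment, a vector too. The siRNA sequences, the promoter of the lentiviral HMGN5 and the time of harvest were not stated in the sources at hand.

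High mobility group proteins are abundant non-histone proteins of chromatin that fall into 3 families. HMGN proteins bind the nucleosome core and compete there with linker histone H1, which loosens compacted chromatin. HMGB proteins bend DNA with their HMG boxes, and HMGA proteins bind the minor groove of AT-rich DNA with their AT hooks. HMGN5 is the longest HMGN protein and has a long acidic tail, and STAT3, a transcription factor activated by JAK kinases, is the other gene targeted in the study.

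HMGN5 lies on the minus strand of chrX:81113699-81201913 (RefSeq, GRCh38.p14). Of the others, HMGN1 lies on chromosome 21, HMGN2 on chromosome 1, HMGN3 and HMGN4 on chromosome 6, HMGB1 on chromosome 13, HMGB2 on chromosome 4 and HMGA2 on chromosome 12. Promoter windows from RefSeq, 250 bases before to 50 after a gene start, were at hand for 6 of the 8 genes. Those shown belong to HMGN5 and HMGN2, whose transcripts were lower with STAT3 siRNA in both experiments, and to HMGN3, whose window was the only match among the 6 genes to TTCNNNGAA, the palindrome known as a binding site of STAT factors. Capitals mark TTCNNNGAA and CCAAT on either strand. The windows run 5′ to 3′ on the strand of the gene and are chrX:81201864-81202163 (minus) for HMGN5, chr1:26472190-26472489 (plus) for HMGN2 and chr6:79234633-79234932 (minus) for HMGN3.
HMGN5: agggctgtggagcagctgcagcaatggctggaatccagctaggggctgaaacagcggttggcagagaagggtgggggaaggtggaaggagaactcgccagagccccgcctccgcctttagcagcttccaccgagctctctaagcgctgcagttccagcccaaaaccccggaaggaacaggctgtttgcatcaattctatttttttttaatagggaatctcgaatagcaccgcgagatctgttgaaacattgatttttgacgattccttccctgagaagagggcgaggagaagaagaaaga
HMGN2: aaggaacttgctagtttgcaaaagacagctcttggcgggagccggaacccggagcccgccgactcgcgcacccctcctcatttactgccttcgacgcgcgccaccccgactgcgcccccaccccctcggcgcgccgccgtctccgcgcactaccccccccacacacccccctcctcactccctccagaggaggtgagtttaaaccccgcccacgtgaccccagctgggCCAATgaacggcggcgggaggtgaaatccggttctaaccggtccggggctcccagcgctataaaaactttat
HMGN3: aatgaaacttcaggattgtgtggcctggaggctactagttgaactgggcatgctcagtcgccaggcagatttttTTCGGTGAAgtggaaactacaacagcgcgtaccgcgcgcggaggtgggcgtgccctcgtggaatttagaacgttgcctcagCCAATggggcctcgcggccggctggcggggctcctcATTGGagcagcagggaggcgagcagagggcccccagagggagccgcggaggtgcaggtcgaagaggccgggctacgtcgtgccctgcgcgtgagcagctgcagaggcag
The HMGN5 window held neither motif. The HMGN2 window held CCAAT 22 bases before the start. The HMGN3 window held TTCGGTGAA 176 bases before the start and CCAAT at 95 and, on the other strand, at 59 bases before it. Of 35116 RefSeq windows of this length, 7.66% held TTCNNNGAA and 34.6% held CCAAT. These are matches of letters and do not show binding.

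Estimated reads per library numbered 19114033 to 19509422 in the siRNA experiment and 22500086 to 23047081 in the lentiviral experiment. Levels are in CPM (reads scaled to library size as counts-per-million values, with TMM scaling within each experiment), on which 3 reads equal 0.151 to 0.16 in the siRNA experiment and 0.131 to 0.138 in the lentiviral one. The 4 NC libraries formed a pair of replicates 1 and 2 and a pair of replicates 3 and 4 that stood apart, with a mean chi-square per transcript of 32.7 to 34 between the pairs and 15.8 and 16.3 within them. Several of the 8 transcripts differed between these pairs. HMGA2 averaged 425 CPM in NC replicates 3 and 4 and 117 CPM in NC replicates 1 and 2. For HMGN4 these means were 29.8 CPM (replicates 3 and 4) and 73.1 CPM (replicates 1 and 2), and for HMGB2 they were 4.82 CPM (replicates 3 and 4) and 11 CPM (replicates 1 and 2). Every result of the siRNA experiment is therefore given with all NC libraries and, where it matters, against each pair. siHMGN5 and siSTAT3 have 2 libraries each, and whether they belong with either NC pair is not labelled. No label states that replicates are separate cultures, and p-values thus cover only the spread among these libraries, which may be technical. STAT3 itself and markers of the cell line were not checked, since the tables do not name their transcripts.

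HMGN5 was lower with siRNA against it or STAT3 than in the matching controls, and was raised far above every control by the lentivirus. In siHMGN5 the HMGN5 transcript had 4.4 and 6.99 estimated reads, against 147, 159, 225 and 216 reads in NC replicates 1 to 4. The siHMGN5 libraries were thus close to the 3-read limit, and the groups did not overlap. HMGN5 averaged 0.29 ± 0.097 CPM in siHMGN5 (SD, n = 2) and 9.74 ± 2.18 CPM in NC (SD, n = 4), which left 2.98% of the NC mean. The log2 fold change was -5.09 ± 0.47 (SE, edgeR quasi-likelihood test, adjusted p = 0.00531, 34-fold lower). It was -4.78 against NC replicates 1 and 2 and -5.34 against NC replicates 3 and 4 (adjusted p = 0.0205 and 0.0104).

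STAT3 siRNA also lowered the HMGN5 transcript. In siSTAT3 it had 19.2 and 31 reads, against the 147 to 225 reads of NC. Both siSTAT3 libraries lay below every NC library. HMGN5 averaged 1.34 ± 0.45 CPM in siSTAT3 (SD, n = 2), 13.7% of the NC mean, and its log2 fold change was -2.86 ± 0.41 (SE, adjusted p = 0.0156, edgeR, 7.27-fold lower). Against NC replicates 1 and 2 it was -2.56 and against NC replicates 3 and 4 it was -3.13 (adjusted p = 0.0476 and 0.024). Without siSTAT3 replicate 1 or 2 the call ended while the direction stayed (log2 fold change -2.55 and -3.26, adjusted p = 0.115 and 0.0746).

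The lower HMGN5 level with STAT3 siRNA was seen again in cells with the control vector, in libraries of a separate experiment. The transcript had 12.6, 18 and 7.57 reads in siSTAT3_Vec, against 36.9, 60 and 77.9 reads in NC_Vec. The siSTAT3_Vec reads were few, and those of replicate 3 were close to the 3-read limit. The groups did not overlap. HMGN5 averaged 0.561 ± 0.232 CPM in siSTAT3_Vec and 2.59 ± 0.88 CPM in NC_Vec (SD, n = 3 each), and its log2 fold change was -2.17 ± 0.33 (SE, adjusted p = 0.0042, edgeR, 4.5-fold lower). This call held in all 12 alternatives, with log2 fold changes of -2.47 to -1.92. The effect of STAT3 siRNA on HMGN5 was not shown to differ between the experiments. The difference, lentiviral minus siRNA experiment, was 0.72 ± 0.49 on the log2 scale (SE, adjusted p = 0.523, edgeR fit of all 17 libraries).

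The lentivirus raised the HMGN5 transcript to 1681, 1491 and 1648 reads in siSTAT3_HMGN5, against 12.6, 18 and 7.57 reads in siSTAT3_Vec. Its mean level with lentiviral HMGN5 was 70.9 ± 4.97 CPM (SD, n = 3), and over siSTAT3_Vec the log2 fold change was 6.94 ± 0.37 (SE, adjusted p = 0.000416, edgeR, 123-fold higher). The size of that fold rests on the few reads of siSTAT3_Vec. The level did not return to that of the vector controls but passed it. Against NC_Vec the log2 fold change was 4.77 ± 0.33 (SE, adjusted p = 5.7e-05, edgeR, 27.3-fold higher). Reads of the lentiviral copy and of the cells' own gene fall on the same transcript and were not separated, and the sources do not state whether the vector carries the full transcript.

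**Figure D1:**
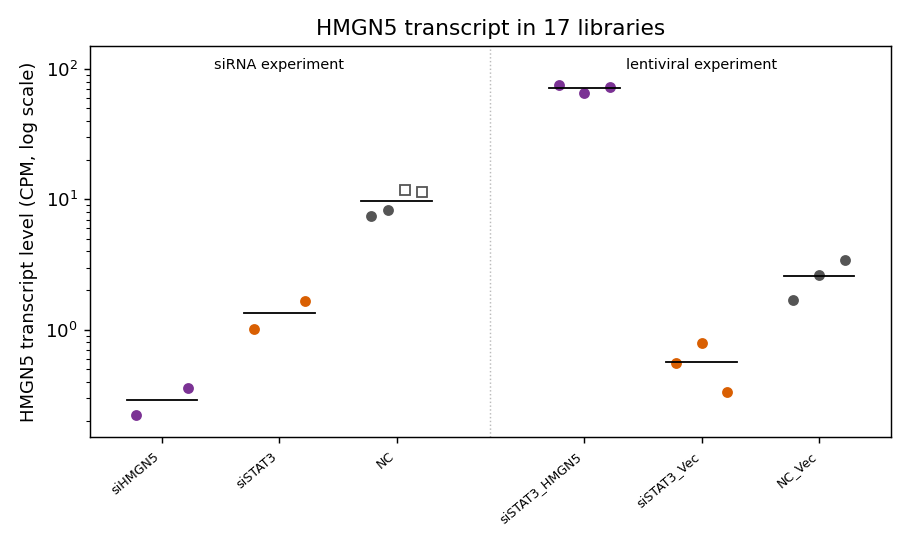
Level of the HMGN5 transcript (y axis, CPM on a log scale, TMM scaling within each experiment) in each of 17 libraries, by group (x axis). Points are libraries, bars are group means, and open squares are NC replicates 3 and 4. The siSTAT3_HMGN5 libraries sit at 65.4 to 75.1 CPM, and the siHMGN5 libraries at 0.222 and 0.359 CPM.

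From the highest to the lowest, HMGN5 ranged over 65.4 to 75.1 CPM in siSTAT3_HMGN5, 7.48 to 11.9 CPM in NC, 1.69 to 3.46 CPM in NC_Vec, 1.02 to 1.66 CPM in siSTAT3, 0.332 to 0.796 CPM in siSTAT3_Vec and 0.222 to 0.359 CPM in siHMGN5. Only siSTAT3_Vec and siHMGN5 overlapped, while NC_Vec and siSTAT3 lay next to each other without a gap beyond their spread. The experiments were scaled apart, so this order across them is a description. In siHMGN5 the level was lower than in siSTAT3 (log2 fold change -2.22 ± 0.45, SE, adjusted p = 0.049, edgeR). That call lay at the threshold and ended in 9 of 10 alternatives, with adjusted p up to 0.245 and log2 fold changes of -2.68 to -1.83.

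The vector controls held less HMGN5 than the uninfected controls before any depletion. HMGN5 averaged 2.59 CPM in NC_Vec and 9.74 CPM in NC, a ratio of 0.266. From the means of all NC libraries, HMGA2 had a ratio of 0.264, HMGN3 0.396 and HMGN1 0.124. The HMGA2 ratio depends on the NC pair. HMGA2 averaged 71.6 CPM in NC_Vec, against 117 CPM in NC replicates 1 and 2 and 425 CPM in NC replicates 3 and 4. HMGN4 and HMGN2 were higher in NC_Vec, with ratios of 1.85 and 1.17, and HMGB1 and HMGB2 overlapped between the groups. For HMGN4 too the ratio depends on the pair, at 95.3 CPM in NC_Vec against 73.1 CPM (NC replicates 1 and 2) and 29.8 CPM (NC replicates 3 and 4). Infection and experiment change together here and cannot be told apart. The experiments were also scaled apart, and no test was made of these ratios.

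Per length, HMGN2 had the highest mean of the members in every group, but in siHMGN5 its libraries overlapped those of HMGA2. To compare genes, CPM was divided by kilobases of effective length. HMGA2 had 76.5 ± 3.56 CPM per kilobase in siHMGN5 (SD, n = 2), near the HMGN2 mean there. HMGN2 had 78.9 ± 5.09 CPM per kilobase in siHMGN5, 107 ± 5.9 in siSTAT3 (SD, n = 2 each) and 157 ± 7.69 in NC (SD, n = 4). In the lentiviral experiment it had 140 ± 5.17 CPM per kilobase in siSTAT3_HMGN5, 145 ± 11.1 in siSTAT3_Vec and 184 ± 9.61 in NC_Vec (SD, n = 3 each). HMGN5 was a small share of the summed level of the 5 HMGN transcripts. That share was 0.128% in siHMGN5, 0.493% in siSTAT3 and 2.04% in NC, and it was 14.1% in siSTAT3_HMGN5, 0.126% in siSTAT3_Vec and 0.506% in NC_Vec. With lentiviral HMGN5 the transcript had rank 3 of the 8 per length in siSTAT3_HMGN5, against rank 7 in NC_Vec. HMGB1 and HMGB2 stayed at or below 7.22 CPM per kilobase as group means, so these transcripts carried little of the signal.

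Among the other HMGN transcripts, HMGN2 was lower with siRNA against HMGN5 or STAT3 than in the matching controls. HMGN2 is a ubiquitous nucleosome-binding protein. It had 69.5 and 75.8 CPM in siHMGN5, against 150, 154, 143 and 136 CPM in NC. The libraries lay close within each group and far apart between them. The log2 fold change was -1 ± 0.09 (SE, adjusted p = 0.00458, edgeR), and the call held in all 14 alternatives. In siSTAT3 it had 95.3 and 103 CPM, also below every NC library, and the log2 fold change was -0.56 ± 0.08 (SE, adjusted p = 0.0187, edgeR). That call ended without siSTAT3 replicate 1 or 2 (log2 fold change -0.51 and -0.61, adjusted p = 0.163 and 0.108).

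HMGN2 fell with STAT3 siRNA in the vector cells too, and showed no call between siSTAT3_HMGN5 and siSTAT3_Vec. It had 121, 140 and 139 CPM in siSTAT3_Vec, against 181, 164 and 167 CPM in NC_Vec (log2 fold change -0.35 ± 0.07, SE, adjusted p = 0.0117, edgeR). The groups did not overlap, and the call held in all 12 alternatives. With lentiviral HMGN5 it had 135, 125 and 129 CPM, within the range of siSTAT3_Vec (log2 fold change -0.04 ± 0.07, SE, adjusted p = 0.901, edgeR). Against NC_Vec, siSTAT3_HMGN5 was lower (log2 fold change -0.40 ± 0.07, SE, adjusted p = 0.00456, edgeR).

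The HMGN1 transcript had no estimated reads in the cells with HMGN5 siRNA. HMGN1, another nucleosome-binding protein, acts in transcription and DNA repair in chromatin. It was at 0 reads in both siHMGN5 libraries, against 842, 842, 1284 and 1073 reads in NC. Taking 3 reads as the limit in each siHMGN5 library, the level was at least 345-fold lower than in NC (adjusted p = 0.00311, edgeR). It was also at 0 in NC_Vec replicate 2, a control library, while NC_Vec replicates 1 and 3 had 275 and 157 reads. A zero here is an estimate for 1 transcript. Reads shared with other transcripts of the gene can be assigned to those, and whether that happened was not tested.

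HMGN1 was also lower in siHMGN5 than in siSTAT3, at least 120-fold with the same limit of 3 reads in each siHMGN5 library (adjusted p = 0.00386, edgeR). In the other comparisons it gave no call with edgeR. It had 12.5 and 24.3 CPM in siSTAT3, against 42.8, 43.9, 67.7 and 56.3 CPM in NC. The groups did not overlap, yet the change did not pass the test (log2 fold change -1.52 ± 0.35, SE, adjusted p = 0.0876, edgeR). In the lentiviral experiment it ranged over 10.6 to 12.3 CPM in siSTAT3_HMGN5, 4.37 to 14.3 CPM in siSTAT3_Vec and 0 to 12.6 CPM in NC_Vec, all overlapping.

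HMGN3, which was found as a partner of the thyroid hormone receptor, was lower with HMGN5 siRNA and higher with STAT3 siRNA in the vector cells. It had 7.58 and 6.66 CPM in siHMGN5, against 11.8, 14.7, 16.7 and 17.2 CPM in NC (log2 fold change -1.09 ± 0.20, SE, adjusted p = 0.0408, edgeR). The groups did not overlap, but the call ended in 9 of 14 alternatives. Against NC replicates 1 and 2 only, the call ended (log2 fold change -0.89, adjusted p = 0.0741, edgeR). Against NC replicates 3 and 4 only, HMGN3 passed (log2 fold change -1.25, adjusted p = 0.0153, edgeR). In siSTAT3 it had 15.4 and 14.1 CPM, within the range of NC. In the vector cells it had 9.41, 11.1 and 10.9 CPM in siSTAT3_Vec, against 5.39, 7.62 and 4.92 CPM in NC_Vec (log2 fold change 0.81 ± 0.20, SE, adjusted p = 0.0334, edgeR). The call ended in 7 of 12 alternatives, with the direction kept and adjusted p up to 0.111. With lentiviral HMGN5 it had 10.7, 14.8 and 13.5 CPM, which overlapped siSTAT3_Vec without a call (log2 fold change 0.31 ± 0.20, SE, adjusted p = 0.547, edgeR). Against NC_Vec, a comparison that also holds STAT3 siRNA, siSTAT3_HMGN5 was higher by 1.12 ± 0.20 (log2, SE, adjusted p = 0.00567, edgeR). The call against NC_Vec held in all 12 alternatives.

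HMGN4 comes from an intronless copy of HMGN2, so reads of both genes can be shared where their sequences match. It had 44.9 and 41.3 CPM in siHMGN5, against 73.5, 72.6, 30.8 and 28.8 CPM in NC replicates 1 to 4. The siHMGN5 libraries lay between the control pairs. The log2 fold change was -0.25 ± 0.44 with all NC libraries (SE, adjusted p = 0.876, edgeR). It was -0.76 against NC replicates 1 and 2 and 0.53 against NC replicates 3 and 4, past the threshold in opposite directions (adjusted p = 0.022 and 0.0465).

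HMGN4 was low in siSTAT3 whichever control pair was used. It had 12.6 and 13.9 CPM in siSTAT3, below all 4 NC libraries. With all NC libraries the log2 fold change of -1.96 ± 0.48 did not pass the test (SE, adjusted p = 0.0853, edgeR). Against NC replicates 1 and 2 it was -2.46 and against NC replicates 3 and 4 it was -1.18, and both passed (adjusted p = 0.00361 and 0.00905). In the vector cells HMGN4 had 89.5, 88.7 and 94.7 CPM in siSTAT3_Vec, against 103, 92 and 90.8 CPM in NC_Vec, and the groups overlapped. The effect of STAT3 siRNA on HMGN4 differed between the experiments by 1.91 ± 0.44 on the log2 scale, lentiviral minus siRNA experiment (SE, adjusted p = 0.0235, edgeR fit of all 17 libraries). That call ended without siSTAT3 replicate 1 or 2, NC_Vec replicate 2 or 3, or siSTAT3_Vec replicate 3 (adjusted p = 0.12, 0.0889, 0.0533, 0.0544 and 0.0511). With either NC pair alone the difference was 2.41 and 1.13, past the threshold. With lentiviral HMGN5, HMGN4 had 79.9, 80.5 and 78.7 CPM, below every NC_Vec library (log2 fold change -0.26 ± 0.06, SE, adjusted p = 0.015, edgeR) and below every siSTAT3_Vec library without passing that test (adjusted p = 0.142).

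**Figure D2:**
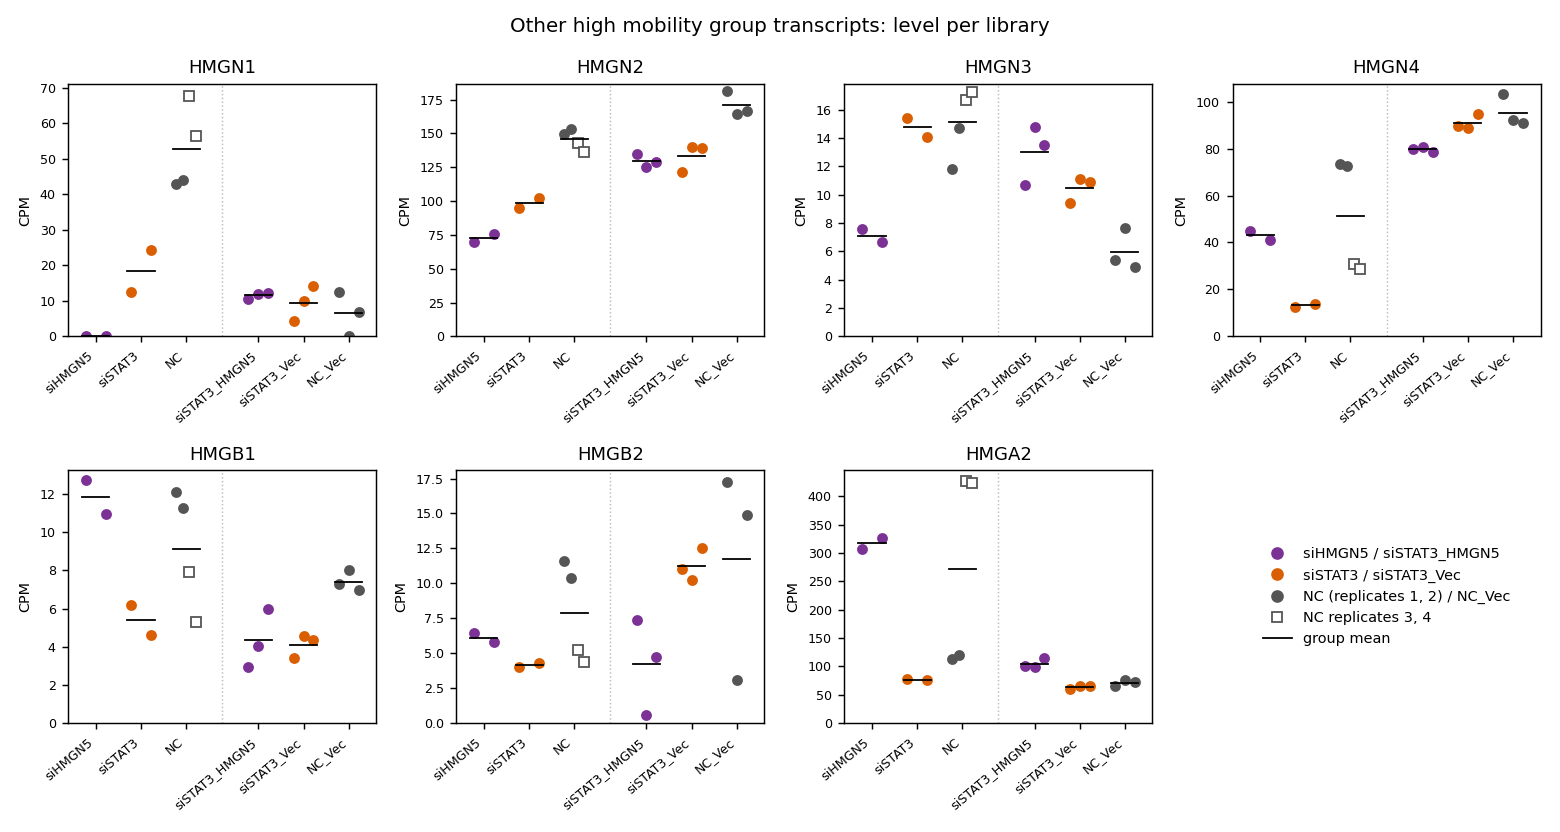
Level of the 7 other transcripts (y axes, CPM from 0, TMM scaling within each experiment) in each library, by group (x axes). Points are libraries, open squares are NC replicates 3 and 4, and bars are group means. The NC pairs part most for HMGA2, where replicates 3 and 4 had 427 and 422 CPM and replicates 1 and 2 had 113 and 121 CPM.

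The HMGB transcripts gave no call with edgeR, fitted on all libraries of an experiment, in any of the 6 comparisons between groups. Before adjustment, HMGB1 was under 0.05 in 3 of the 6 (siHMGN5 vs siSTAT3, siSTAT3_Vec vs NC_Vec and siSTAT3_HMGN5 vs NC_Vec) and HMGB2 in 0 of the 6. DESeq2 called HMGB1 in siSTAT3_Vec vs NC_Vec and siSTAT3_HMGN5 vs NC_Vec (log2 fold change -0.87 and -0.79, adjusted p = 0.00776 and 0.0129). HMGB1 acts as a DNA chaperone in the nucleus and as an alarm signal when released from cells. It had 3.41, 4.59 and 4.34 CPM in siSTAT3_Vec, against 7.27, 8.01 and 6.96 CPM in NC_Vec. The groups did not overlap, and the log2 fold change of -0.85 ± 0.27 missed the threshold (SE, adjusted p = 0.0775, edgeR), and passed it when edgeR was fitted on these groups alone (adjusted p = 0.0297). In the siRNA experiment HMGB1 had 12.8 and 11 CPM in siHMGN5, 6.2 and 4.63 CPM in siSTAT3 and 12.1, 11.3, 7.89 and 5.28 CPM in NC. Both siHMGN5 and siSTAT3 overlapped NC.

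HMGB2, a relative of HMGB1 that is abundant in dividing cells, had single libraries far from the others of their group. It had 7.36, 0.568 and 4.73 CPM in siSTAT3_HMGN5, 11, 10.3 and 12.5 CPM in siSTAT3_Vec and 17.3, 3.07 and 14.9 CPM in NC_Vec. The low libraries were replicate 2 of siSTAT3_HMGN5 and of NC_Vec. All 3 siSTAT3_HMGN5 libraries lay below the siSTAT3_Vec libraries, but the log2 fold change of -1.41 ± 0.87 did not pass the test (SE, adjusted p = 0.531, edgeR). In siSTAT3 it had 4.05 and 4.28 CPM, below all NC libraries at 11.6, 10.4, 5.24 and 4.41 CPM, again without a call (adjusted p = 0.37, edgeR).

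HMGA2, an oncofetal chromatin protein repressed by the let-7 microRNAs in adult tissue, had the highest mean CPM of the 8 in siHMGN5 and in NC. In NC replicates 1 and 2 HMGA2 averaged less than HMGN2, at 117 against 152 CPM. It had 308 and 327 CPM in siHMGN5, against 113, 121, 427 and 422 CPM in NC replicates 1 to 4. These values lay between the control pairs. The log2 fold change was 0.23 ± 0.60 with all NC libraries (SE, adjusted p = 0.929, edgeR), 1.44 against NC replicates 1 and 2 and -0.42 against NC replicates 3 and 4 (adjusted p = 0.00505 and 0.0175). No direction can be given for HMGA2 after HMGN5 siRNA.

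HMGA2 was lower in siSTAT3 than in either control pair. It had 77.8 and 75.3 CPM in siSTAT3, below all NC libraries. With all NC libraries the log2 fold change of -1.82 ± 0.66 did not pass the test (SE, adjusted p = 0.226, edgeR), and against NC replicates 1 and 2 or 3 and 4 it was -0.61 or -2.49, past the threshold in both (adjusted p = 0.0141 and 0.00292). In the vector cells HMGA2 had 59.5, 65.1 and 65.2 CPM in siSTAT3_Vec, against 66.1, 76.4 and 72.2 CPM in NC_Vec. The groups did not overlap, without a call (log2 fold change -0.18 ± 0.08, SE, adjusted p = 0.212, edgeR). The difference of the STAT3 siRNA effect, lentiviral minus siRNA experiment, did not pass (1.67 ± 0.63, log2, SE, adjusted p = 0.176, edgeR). It was 0.45 with NC replicates 1 and 2 only and 2.32 with NC replicates 3 and 4 only, past the threshold in both (adjusted p = 0.0425 and 4.35e-07, edgeR).

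HMGA2 and HMGN5 itself were the members raised with lentiviral HMGN5. HMGA2 had 100.1, 99.5 and 115 CPM in siSTAT3_HMGN5, against 59.5, 65.1 and 65.2 CPM in siSTAT3_Vec. The groups did not overlap, and the log2 fold change was 0.73 ± 0.08 (SE, adjusted p = 0.00422, edgeR, 1.66-fold higher). Against NC_Vec it was also higher, by 0.55 ± 0.08 (SE, adjusted p = 0.00219, edgeR). Both calls held in all 12 alternatives run for each, with log2 fold changes of 0.65 to 0.76 and 0.47 to 0.59.

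**Figure D3:**
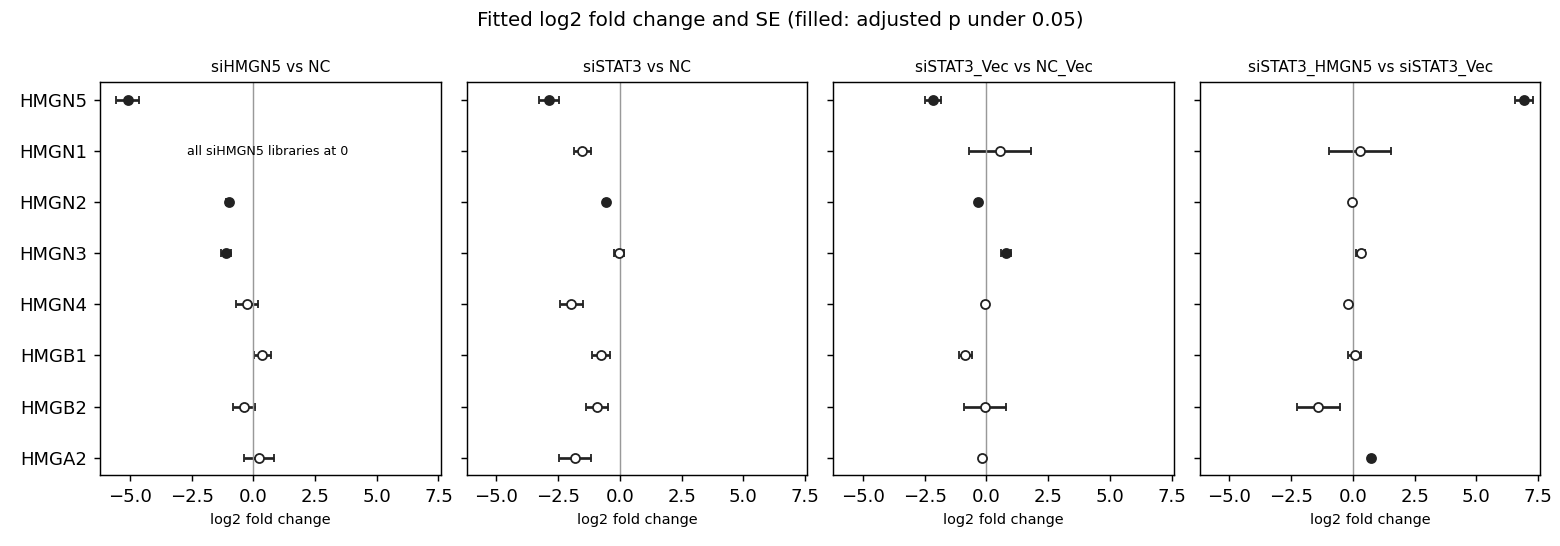
Fitted log2 fold changes of the 8 transcripts (rows) in 4 comparisons (panels), with SE bars. Filled points passed the edgeR test at an adjusted p under 0.05, and HMGN1 has no point in siHMGN5 vs NC, where both siHMGN5 libraries were at 0. HMGN5 runs over -5.09, -2.86, -2.17 and 6.94 from left to right.

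Counted over the set, 4 of the 8 transcripts passed the test in siHMGN5 against NC, all lower, where 3.39% of the 74346 transcripts tested passed, 0.943% as higher and 2.45% as lower. HMGN5 itself is among the 4 as the target of the siRNA. In siSTAT3 against NC, 2 passed, HMGN5 and HMGN2, both lower (4.28% of all passed, 1.36% as higher and 2.92% as lower). In siHMGN5 against siSTAT3, 2 passed, HMGN5 and HMGN1, both lower (3.89% of all, 1.87% as higher and 2.02% as lower). In the lentiviral experiment, 3 passed in siSTAT3_Vec against NC_Vec, 1 higher and 2 lower (14.3% of 69768, 7.2% as higher and 7.07% as lower). There, 2 passed in siSTAT3_HMGN5 against siSTAT3_Vec, both higher (3.77%, 1.52% as higher and 2.25% as lower). In siSTAT3_HMGN5 against NC_Vec, 5 passed, 3 higher and 2 lower (22.3%, 10.9% as higher and 11.4% as lower). HMGN5 counts among the higher in both comparisons of siSTAT3_HMGN5 as the gene delivered by the lentivirus. In siHMGN5 against siSTAT3 it counts as the target of the siRNA. For the STAT3 siRNA effect, lentiviral minus siRNA experiment, HMGN4 alone of the 8 passed (5.51% of 86839, 3.28% as higher and 2.23% as lower). The median log2 fold change of the 8 was -0.68 in siHMGN5 against NC and -1.22 in siSTAT3 against NC, where the median of all transcripts was 0. In the vector cells it was -0.12 for STAT3 siRNA, where that of all transcripts was 0.02, and 0.18 for lentiviral HMGN5, where that of all was -0.01. The comparisons within an experiment share libraries.

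The count in the siRNA experiment depended on the control pair. For siHMGN5, 5 of the 8 passed against NC replicates 1 and 2, 1 higher and 4 lower (4.85% of 70725, 1.69% as higher and 3.16% as lower), and 6 passed against NC replicates 3 and 4, 1 higher and 5 lower (8.85% of 70600, 3.74% as higher and 5.11% as lower). HMGN5, HMGN1 and HMGN2 were lower against both pairs, while HMGN4 and HMGA2 passed in opposite directions. For siSTAT3, 5 passed against NC replicates 1 and 2 (6.54%, 2.59% as higher and 3.95% as lower) and 4 against NC replicates 3 and 4 (8.87%, 3.74% as higher and 5.12% as lower), all lower. HMGN5, HMGN2, HMGN4 and HMGA2 were lower against both pairs, and HMGB2 passed against replicates 1 and 2 (log2 fold change -1.40, adjusted p = 0.0232) but not against replicates 3 and 4 (-0.23, adjusted p = 0.617). For the STAT3 siRNA effect between experiments, 2 passed with NC replicates 1 and 2 only (6.67% of 85369, 3.68% as higher and 2.99% as lower) and 3 with NC replicates 3 and 4 only (10.9% of 85496, 5.89% as higher and 5.01% as lower), all higher.

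**Figure D4:**
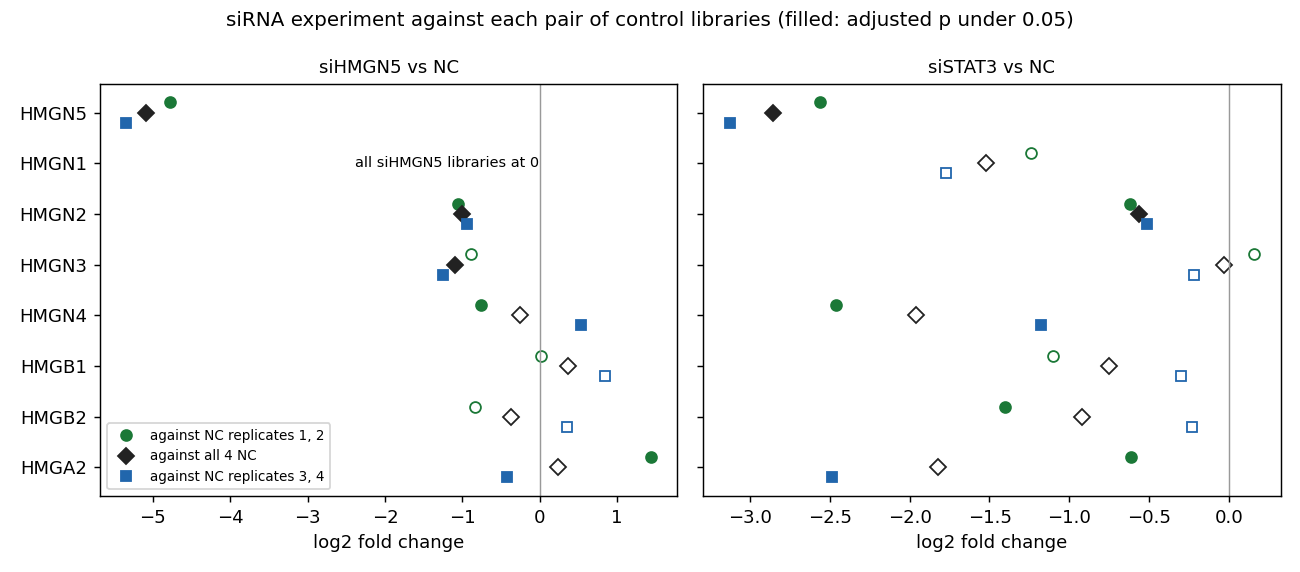
Log2 fold changes of the 8 transcripts (rows) in siHMGN5 (left) and siSTAT3 (right) against NC replicates 1 and 2 (circles), all 4 NC libraries (diamonds) and NC replicates 3 and 4 (squares). Filled points passed the edgeR test at an adjusted p under 0.05. HMGN5 and HMGN2 stay on the lower side throughout, while HMGA2 in siHMGN5 lies at 1.44 against replicates 1 and 2 and at -0.42 against replicates 3 and 4.

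The transcripts most like HMGN5 across the 17 libraries were ENST00000312561.8 and ENST00000470472.5, with Pearson r of 0.937 and 0.93 among 27692 transcripts of at least 2 CPM, on log2(CPM + 0.5) less the mean of each experiment. The compared transcripts most opposite to HMGN5 were ENST00000536969.1 and ENST00000261402.6, at -0.929 and -0.926. The libraries share treatment groups, so these values are a description, and the tables do not name the IDs. HMGN5 averaged 70.9 CPM in siSTAT3_HMGN5, against 0.561 CPM in siSTAT3_Vec and 2.59 CPM in NC_Vec, so the lentiviral copy enters these r values.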

How the data were processed

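Poly(A) RNA was sequenced for 17 libraries in 6 groups, taken from the sample titles. The 8 transcripts and the tests were chosen with earlier results of these data known. The 2 H3K27ac CUT&Tag samples were not analysed here.

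Each deposited table lists Ensembl transcripts with estimated counts of reads, TPM, length and effective length, per the file headers. Among the tools in the submitters' processing notes is Salmon 1.4.0, which quantifies transcripts, and the build given there is GRCh38. No transcript release or mapping option is stated. The deposited estimated counts (expected counts) need not be whole, because reads that match more than 1 transcript are split by estimation. Transcripts of a gene, paralogs and pseudogenes can trade reads. HMGN4 had whole estimated reads (within 0.0015) in 5 libraries, and HMGN1 in its 3 libraries at 0. The deposited TPM was used only as an alternative for shares.

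Counts were rounded to whole numbers and tested per transcript over the whole table with edgeR 4.0.16 in R 4.3.3 (filterByExpr, TMM, glmQLFit and glmQLFTest on group means, two-sided). Each experiment was fitted apart and all 17 libraries were fitted together for the difference between experiments. Benjamini-Hochberg adjustment ran over all transcripts tested, with a threshold of 0.05. SE came from the fold change and the root of its quasi-likelihood F value. The scripts were tested on simulated data. The named transcripts were the 8 of the set and the 2 most and 2 least like HMGN5. Listed genes beyond the 8, STAT3 among them, and markers of the line were not read, since 0 of them had a paired transcript ID. Alternatives were DESeq2 1.42.0, RLE scaling, no low-count filter, an effective length offset, only the compared groups, a replicate block, each NC pair alone and each library left out. No group held libraries that agree within counting noise (mean chi-square per transcript of at least 14.7 over transcripts with 20 or more summed reads). The 3-read limit covers counting error only.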

Additional observations from a re-analysis of the deposited data

Results flagged for a closer look

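HMGN4 differed between the experiments in its response to STAT3 siRNA, by 1.91 ± 0.44 on the log2 scale, lentiviral minus siRNA experiment (SE, adjusted p = 0.0235, edgeR). It was lower in both siSTAT3 libraries than in all 4 NC libraries, and overlapped between siSTAT3_Vec and NC_Vec. Infection and experiment cannot be told apart, and HMGN4 also differed 2.45-fold between the NC pairs. The call for this difference between experiments ended in 5 of 17 alternatives, over which the difference ranged from 1.13 to 2.41.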

How the results depend on the processing

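HMGN5 kept its direction in all 91 recomputed values and its side of the threshold in 79, and the other 7 transcripts reversed in 22 of 637. No label states that replicate numbers pair the libraries, and correlations of deviations of same-numbered libraries were near 0 (-0.071 to 0.07). With so few libraries a group, these correlations cannot show that pairing is absent. The replicate block is therefore only an alternative. NC replicates 3 and 4 have no partner there and add nothing to its contrasts. With the replicate block, calls numbered 902 for siHMGN5 vs NC, 1622 for siSTAT3 vs NC and 1156 for siSTAT3_HMGN5 vs siSTAT3_Vec. HMGN5 then missed the threshold in siSTAT3 vs NC (-2.61, adjusted p = 0.0589) and in siHMGN5 vs siSTAT3 (-2.23, 0.0688), HMGN1 and HMGN3 missed it in siHMGN5 vs NC (adjusted p = 0.0596 and 0.17), HMGN3 in siSTAT3 vs NC turned to 0.16 and HMGB2 in siSTAT3_Vec vs NC_Vec to 0.46. The block added 6 calls: HMGA2 in siHMGN5 vs NC (1.44, adjusted p = 0.028), HMGN4 and HMGA2 in siSTAT3 vs NC (-2.46 and -0.61, 0.0212 and 0.0415), and HMGN2, HMGN4 and HMGA2 in siHMGN5 vs siSTAT3 (-0.45, 1.7 and 2.05, with 0.0429, 0.0217 and 0.0152). HMGN5 in siHMGN5 vs siSTAT3 also missed it with RLE scaling (-2.22, adjusted p = 0.0505), no filter (-2.21, 0.0799), the effective length offset (-2.23, 0.0531) and the compared groups only (-2.22, 0.155). Without a filter, 1638 transcripts were called for siHMGN5 vs NC and 1627 for siSTAT3_HMGN5 vs siSTAT3_Vec, and with only the compared groups 1448 for siHMGN5 vs NC. DESeq2 called 9889, 10606, 10169, 16960 and 8042 transcripts for siHMGN5 vs NC, siSTAT3 vs NC, siHMGN5 vs siSTAT3, siSTAT3_Vec vs NC_Vec and siSTAT3_HMGN5 vs siSTAT3_Vec, against 2521, 3181, 2893, 9953 and 2631 with edgeR. It added 10 calls among the 8 transcripts: HMGN1, HMGN4 and HMGA2 in siSTAT3 vs NC (adjusted p = 0.000204, 0.000169 and 0.0139), HMGN2, HMGN3, HMGN4 and HMGA2 in siHMGN5 vs siSTAT3 (1.53e-05, 0.00015, 0.00836 and 0.0177), HMGB1 in siSTAT3_Vec vs NC_Vec and siSTAT3_HMGN5 vs NC_Vec (0.00776 and 0.0129) and HMGN4 in siSTAT3_HMGN5 vs siSTAT3_Vec (0.018). The compared groups alone added 3: HMGN4 and HMGA2 in siHMGN5 vs siSTAT3 (0.0235 and 0.0219) and HMGB1 in siSTAT3_Vec vs NC_Vec (0.0297). Against NC replicates 3 and 4 only, 6249 were called for siHMGN5, 6259 for siSTAT3 and 9318 for the difference between experiments. HMGN4, HMGB2 and HMGA2 in siHMGN5 vs NC turned to 0.53, 0.35 and -0.42 there. Against NC replicates 1 and 2 only, HMGN3 in siSTAT3 vs NC turned to 0.16 and HMGB1 in the difference between experiments to 0.27. The cause of these changes was not tested. The deposited TPM gave the same HMGN5 shares in all 6 groups. TPM is itself reads per effective length rescaled per library, so this match was fixed in advance and is no check of the shares.

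Leaving out 1 library gave 551 to 1838 calls for siHMGN5 vs NC, 775 to 2349 for siSTAT3 vs NC, 844 to 972 for siHMGN5 vs siSTAT3, 6994 to 8457 for siSTAT3_Vec vs NC_Vec, 1190 to 1668 for siSTAT3_HMGN5 vs siSTAT3_Vec, 12176 to 12995 for siSTAT3_HMGN5 vs NC_Vec and 3061 to 5393 for the difference between experiments. A lone library was assumed to vary like the other groups. HMGN5 ranged over -3.26 to -2.55 in siSTAT3 vs NC and -2.68 to -1.83 in siHMGN5 vs siSTAT3. Ranges that crossed 0 were -0.03 to 0.53 for HMGA2 in siHMGN5 vs NC, -0.14 to 0.04 for HMGN3 in siSTAT3 vs NC, -0.04 to 1.45 for HMGN1 and -0.52 to 0.33 for HMGB2 in siSTAT3_Vec vs NC_Vec, -0.06 to 0.7 for HMGN1 and -0.24 to 0.29 for HMGB1 in siSTAT3_HMGN5 vs siSTAT3_Vec, and -0.27 to 0.15 for HMGB1 in the difference between experiments. None of these was a call with all libraries.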
